A study of Mus musculus with 13 samples.

Results

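Heat shock and chaperone genes of mouse skeletal muscle were followed as a set of 10 genes taken by symbol, Hspa1a, Hspa1b, Hspa8, Hsp90aa1, Hsph1, Dnajb1, Hspb1, Hspb7, Cryab and Bag3. Each symbol matched 1 Ensembl gene on build GRCm38, so the set is 10 of the 49315 genes in the count table, and all 10 are among the 16496 that passed the filter on low counts. Libraries were made from polyA-selected RNA of skeletal muscle, and the 13 of them fall into 4 groups by genotype and diet. The KO animals lacked the miR-181a2b2 locus systemically (miR-181a2b2-/-) and the flox animals were homozygous for its floxed form (miR-181a2b2flox/flox, WT in the titles). The groups were HFSC KO (n = 3), HFSC flox (n = 4), chow KO (n = 3) and chow flox (n = 3), where HFSC is a diet whose abbreviation is not spelled out. Hindlimb ischemia is mentioned for the whole series without a limb or a time for any sample, and age, sex, strain and the muscle taken are not stated. The extraction protocol names white adipose tissue although each sample is labelled as muscle. The labels do not say whether replicates are separate animals, and a p-value here reflects only how far these libraries scatter, part of which may be technical.

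Chaperones hold unfolded or partly folded proteins so that they can refold or be handed on for breakdown. In the cytosol, HSP70 proteins bind and release clients in a cycle driven by ATP, J-domain proteins such as Dnajb1 bring clients and start the hydrolysis, nucleotide exchange factors such as Hsph1 and Bag3 end it, and HSP90 completes the folding of many kinases and receptors. Small heat shock proteins bind unfolded proteins without ATP. Under heat or other proteotoxic stress the transcription factor HSF1 binds inverted repeats of the bases GAA, called heat shock elements, and raises the transcripts of many of these genes. In muscle, the small heat shock proteins and Bag3 are abundant at rest and guard the Z-disc and the filaments of the sarcomere.

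The promoters show where such elements lie in members of this set. RefSeq windows on GRCm38.p6, each with 250 bases before a transcription start, were found for 7 of the 10 members. The 150 bases before the start are shown for the inducible pair Hspa1a and Hspa1b, whose transcripts moved together, and for Hspb1, the member that passed a test, with each GAANNTTC or TTCNNGAA (a pair of inverted GAA units, the same on both strands) in capitals. They are chr17:34972157-34972306 on the minus strand for Hspa1a, chr17:34959239-34959388 on the minus strand for Hspa1b and chr5:135887769-135887918 on the plus strand for Hspb1, and none overlaps an annotated exon.
Hspa1a: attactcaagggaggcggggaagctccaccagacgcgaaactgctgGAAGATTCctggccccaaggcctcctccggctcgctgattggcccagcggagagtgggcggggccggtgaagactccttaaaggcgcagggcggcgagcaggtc
Hspa1b: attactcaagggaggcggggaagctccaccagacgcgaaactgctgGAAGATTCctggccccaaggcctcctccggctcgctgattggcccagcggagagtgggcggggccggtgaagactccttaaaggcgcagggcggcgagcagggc
Hspb1: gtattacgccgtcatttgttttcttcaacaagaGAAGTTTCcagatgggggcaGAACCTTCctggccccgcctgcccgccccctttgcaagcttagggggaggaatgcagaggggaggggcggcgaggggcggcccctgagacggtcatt
The Hspa1a and Hspa1b windows were identical at 149 of 150 bases, and each held the element at position -104 from the start. Hspb1 held a pair of elements, at -117 and -97. A 2-unit element was present upstream in 4 of the 7 members with a window, the fourth being Hsph1, against 12.8% of all 32851 promoter windows. Members were counted by gene, over all annotated starts of each, whereas the share is by window. Hspa1a and Hspa1b, identical at 247 of the 250 bases, entered as separate members. The stricter element of 3 units, GAANNTTC continued by NNGAA or TTCNNGAA continued by NNTTC, which contains the shorter one, was in 0 members upstream of the start and in 0.466% of all windows. Past the start, Hsph1 held a 3-unit element at position 37 or 16, depending on the annotated start, and Bag3 a 2-unit element at position 43. No share over all windows was taken for bases past the start.

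The near-identity of some members limits what their counts can separate. Of the 50-base words in Hspa1a transcripts, 58.8% also occur in Hspa1b, and 62.3% of those of Hspa1b occur in Hspa1a. The pseudogene Hsp25-ps1 shares 48.8% of the words of Hspb1, Gm15459 shares 34.6% of those of Hspa8 and Gm12346 shares 41.8% of those of Hsp90aa1, and these pseudogenes held at most 41 reads in any library. Hsph1 and Bag3 shared 0 words with any other gene. Cryab shares 252 exon bases with Hspb2 on the opposite strand, and Hspa1a shares 564 with the predicted gene Gm20481. How reads with several alignments were counted, and whether strand was used, is not given in the sources used here.

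Total counts ran from 20830943 to 45710227 per library. The summed level of 7 skeletal muscle markers was 72143 to 176230 CPM (read counts scaled to a common library size after TMM normalisation), so the labelled tissue carried its markers in every library. The summed level of 8 adipocyte genes was 212 to 797 CPM, with Adipoq at 7.11 to 30.7 CPM and Fabp4 at 153 to 553 CPM. Chow flox replicate 4 lay beside the 3 chow KO libraries on the first principal component (50.7% of the variance), at 51.3 against 51.8 to 88.6 for chow KO, with chow flox replicates 2 and 3 at -32.6 and -67.8. Counts were tested with edgeR's quasi-likelihood test with Benjamini-Hochberg adjustment over 16496 genes, and "passed" means an adjusted p below 0.05. Without TMM, scaling by library totals alone, the median of the log2 fold changes over all genes was -0.35 for KO against flox on chow, -0.16 for HFSC against chow in flox and 0.21 for HFSC against chow in KO, and fold changes are to be read against those shifts. Under that scaling the difference between KO and flox on chow turned negative for Hspa8, Hsp90aa1, Hspb1, Cryab and Bag3.

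**Figure D1:**
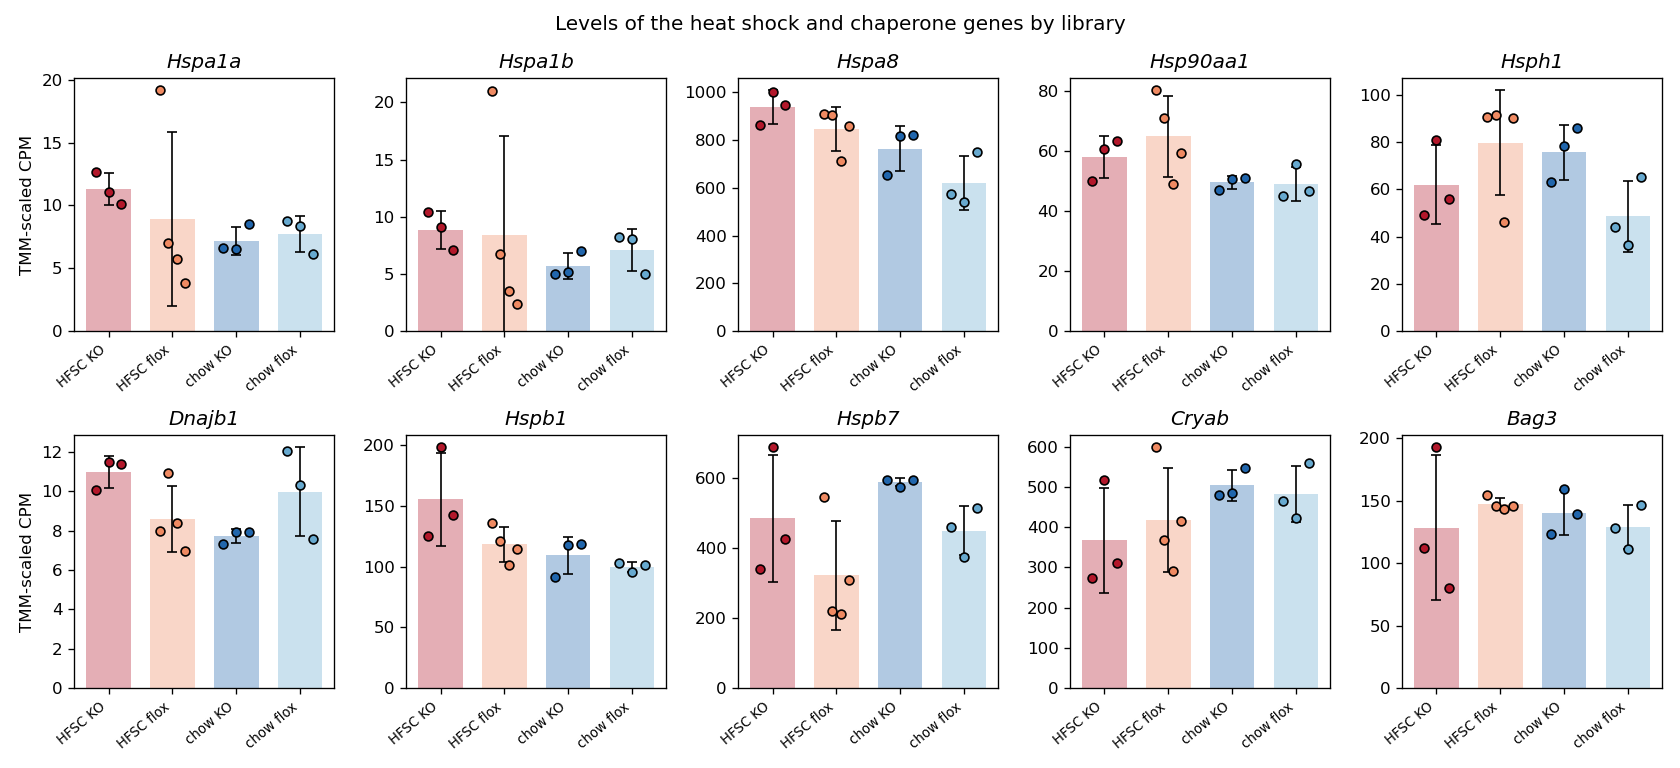
TMM-scaled CPM (linear axes from 0) of the 10 members in the 4 groups. Points are libraries, bars the group means and lines the SD, cut at 0 for Hspa1b in HFSC flox. Hspb1 in HFSC KO (125 to 198 CPM) lies above chow KO (91.8 to 118 CPM), and 1 HFSC flox library stands alone in Hspa1a and Hspa1b.

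Per length of exon, Cryab, Hspa8, Hspb7 and Hspb1 stood far above Hspa1a, Hspa1b and Dnajb1. Mean RPKM (CPM per kilobase of union exon) over the 13 libraries were 298 for Cryab, 185 for Hspa8, 163 for Hspb7 and 117 for Hspb1, and the library ranges of each neighbouring pair in this order overlapped. Bag3 followed at 53.5 RPKM, below every Hspb1 value (31.4 to 75.1 against 89.0 to 192 RPKM). Hsp90aa1 had 14.3 and Hsph1 9.29 RPKM, with overlapping ranges. Hspa1a (2.97 RPKM), Dnajb1 (2.89 RPKM) and Hspa1b (2.71 RPKM) were lowest, and their ranges overlapped.

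The HSP70 genes come first. Hspa1a encodes a stress-inducible HSP70 (chromosome 17, 34969190 to 34972156, minus strand). It had 12.7, 11.05 and 10.1 CPM in HFSC KO replicates 2, 3 and 4, and 19.1, 6.99, 5.71 and 3.82 CPM in HFSC flox replicates 1 to 4. In chow KO replicates 1, 2 and 3 it had 6.58, 6.51 and 8.49 CPM, and in chow flox replicates 2, 3 and 4 it had 8.78, 8.36 and 6.14 CPM. HFSC KO lay above both chow groups, whereas HFSC flox spanned the whole range, with replicate 1 the highest and replicate 4 the lowest of all 13 libraries. Hspa1b, its near-copy (34956436 to 34959238), had 21.0 CPM in HFSC flox replicate 1 and 2.34 CPM in HFSC flox replicate 4, again the extremes. Over the 13 libraries the log2 CPM of the pair had a Pearson r of 0.97, a description in which shared sequence and shared libraries both enter. When their reads were added together, the pair had 23.1, 20.1 and 17.2 CPM in HFSC KO, against 11.6, 11.7 and 15.5 CPM in chow KO. The summed pair did not pass in any comparison, and its log2 fold change for HFSC against chow in KO was 0.64 ± 0.51 (SE; 95% interval -0.47 to 1.75; edgeR, adjusted p = 0.361). With only the HFSC KO and chow KO libraries in the fit, Hspa1a (0.64, adjusted p = 0.0111) and Hspa1b (0.63, adjusted p = 0.0317) passed that comparison in edgeR.

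The 95% intervals show how little the inducible pair could resolve. For KO against flox on chow Hspa1a had a log2 fold change of -0.11 (interval -1.07 to 0.84), and Hspa1b had -0.32 (interval -1.63 to 0.99). For HFSC against chow in flox the values were 0.19 (interval -0.70 to 1.08) for Hspa1a and 0.23 (interval -0.98 to 1.45) for Hspa1b. Both turned negative without HFSC flox replicate 1, to -0.51 for Hspa1a and -0.78 for Hspa1b (edgeR, adjusted p = 0.476 for both; over the alternatives tried none passed).

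Hspa8, the constitutive HSP70 that serves protein folding, clathrin uncoating and chaperone-mediated autophagy (chromosome 9, 40800984 to 40810087, plus strand), was the member with the highest CPM. It had 862, 1002 and 948 CPM in HFSC KO replicates 2, 3 and 4, and 911, 903, 714 and 859.9 CPM in HFSC flox replicates 1 to 4. It had 654, 817 and 822.5 CPM in chow KO replicates 1, 2 and 3, and 573, 539 and 749 CPM in chow flox replicates 2, 3 and 4. The group means thus stood in the order HFSC KO, HFSC flox, chow KO and chow flox, at 937 ± 70.5, 847 ± 91.4, 765 ± 95.5 and 620.3 ± 113 CPM (SD). HFSC KO and chow KO did not overlap, and HFSC flox and chow flox overlapped only through HFSC flox replicate 3 and chow flox replicate 4. Neither diet difference passed, with 0.45 ± 0.16 in flox (edgeR, adjusted p = 0.253) and 0.29 ± 0.16 in KO (edgeR, adjusted p = 0.195). The difference in flox passed with limma voom (0.57, adjusted p = 0.00194) and without chow flox replicate 4 (0.61, edgeR, adjusted p = 0.0261), and that in KO with library totals (0.49, edgeR, adjusted p = 0.0141).

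Hsp90aa1, the inducible cytosolic HSP90 (chromosome 12, 110690605 to 110702728, minus strand), differed little between genotypes. It averaged 57.9 ± 7.04 CPM in HFSC KO and 64.9 ± 13.6 CPM in HFSC flox, and 49.6 ± 2.19 CPM in chow KO and 49.0 ± 5.79 CPM in chow flox. The log2 fold change for KO against flox on chow was 0.017 with an interval of -0.34 to 0.37, and it took either sign under the alternatives. For HFSC against chow it was 0.40 ± 0.15 in flox and 0.22 ± 0.16 in KO, and neither passed (edgeR, adjusted p = 0.305 and 0.322). The difference in flox passed with limma voom (0.52, adjusted p = 0.00861).

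Hsph1, the HSP110 protein that recharges HSP70 by nucleotide exchange (chromosome 5, 149614287 to 149636376, minus strand), gave the widest split between genotypes on chow. It had 63.0, 78.2 and 86.0 CPM in chow KO replicates 1, 2 and 3, against 43.9, 36.5 and 65.3 CPM in chow flox replicates 2, 3 and 4. On HFSC it had 49.3, 81.1 and 55.8 CPM in HFSC KO replicates 2, 3 and 4, and 90.7, 91.3, 46.4 and 90.4 CPM in HFSC flox replicates 1 to 4. On chow the groups overlapped only because chow flox replicate 4 exceeded chow KO replicate 1. On HFSC every KO value lay within the range of flox, above HFSC flox replicate 3 and below replicates 1, 2 and 4. The log2 fold changes for KO against flox were 0.64 ± 0.28 on chow (edgeR, adjusted p = 0.131) and -0.36 ± 0.26 on HFSC (edgeR, adjusted p = 0.683). The difference on chow passed with limma voom (0.82, adjusted p = 0.00111) and without chow flox replicate 4 (0.92, edgeR, adjusted p = 0.0265). For HFSC against chow in flox Hsph1 differed by 0.72 ± 0.27 (edgeR, adjusted p = 0.288), which passed with limma voom (0.86, adjusted p = 0.00478).

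Dnajb1, the J-domain partner of HSP70 (chromosome 8, 83608193 to 83612653, plus strand), showed the opposite arrangement. It had 10.1, 11.5 and 11.4 CPM in HFSC KO replicates 2, 3 and 4, and 8.002, 10.9, 8.40 and 6.97 CPM in HFSC flox replicates 1 to 4. It had 7.33, 7.95 and 7.93 CPM in chow KO replicates 1, 2 and 3, and 12.03, 10.3 and 7.58 CPM in chow flox replicates 2, 3 and 4. All HFSC KO values exceeded all chow KO values, and chow flox replicate 4 was again the flox library that fell among the chow KO values. The log2 fold change for HFSC against chow in KO was 0.50 ± 0.18 and did not pass (edgeR, adjusted p = 0.0608; 0.0135 to 0.158 over the alternatives). It passed with DESeq2, with limma voom and with only the HFSC KO and chow KO libraries in the fit. For KO against flox on chow the value of -0.37 ± 0.18 (edgeR, adjusted p = 0.173) passed with limma voom (-0.59, adjusted p = 0.000842) and without chow flox replicate 4 (-0.53, edgeR, adjusted p = 0.0228), and for HFSC against chow in flox the value of -0.23 ± 0.17 (edgeR, adjusted p = 0.620) passed with limma voom (-0.55, adjusted p = 0.00458).

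For both genes the genotype difference was of opposite sign on the 2 diets, and the interaction of genotype and diet was tested directly. It was -1.002 ± 0.39 for Hsph1 (edgeR, adjusted p = 0.122) and 0.73 ± 0.25 for Dnajb1 (edgeR, adjusted p = 0.100), so neither passed. Both passed with limma voom on all 13 libraries, at -1.35 for Hsph1 (adjusted p = 0.00200) and 0.999 for Dnajb1 (adjusted p = 0.00126). In edgeR they passed only when chow flox replicate 4 was left out. Without it the interaction was -1.28 for Hsph1 (edgeR, adjusted p = 0.0235; 0.00200 to 0.274 over the alternatives) and 0.89 for Dnajb1 (edgeR, adjusted p = 0.00822; 0.00126 to 0.224 over the alternatives). That fit called 5928 of the 16972 genes it tested for the interaction, against 0 genes in edgeR with all 13 libraries. With all 13 libraries DESeq2 called 2025 and limma voom 7098 of all 16496 genes. Hsph1 and Dnajb1 had a Pearson r of -0.40 over the 13 libraries, the lowest of the 45 pairs of members, given as a description.

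Among the small heat shock proteins, Hspb1 (chromosome 5, 135887919 to 135889563, plus strand), which binds unfolded proteins and actin filaments, was the 1 member that passed a test. It had 125, 198 and 143 CPM in HFSC KO replicates 2, 3 and 4, against 91.8, 118 and 118 CPM in chow KO replicates 1, 2 and 3. All 3 HFSC KO values lay above all 3 chow KO values, and replicate 3 of HFSC KO was far above the rest. Hspb1 rose to 155 ± 38.1 CPM in HFSC KO, against 109 ± 15.1 CPM in chow KO (SD, n = 3 each), a log2 fold change of 0.51 ± 0.17 (edgeR, adjusted p = 0.0450). In flox it averaged 118 ± 14.4 CPM on HFSC and 99.7 ± 3.80 CPM on chow, and the difference of 0.25 ± 0.16 did not pass (edgeR, adjusted p = 0.560). The diet effects in the genotypes were not shown to differ, since the interaction was 0.26 ± 0.23 (edgeR, adjusted p = 0.464).

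The Hspb1 call was fragile. It was lost with limma voom (0.31, adjusted p = 0.0724) and with no low-count filter (0.50, adjusted p = 0.0533). It was also lost without HFSC KO replicate 3 (log2 fold change 0.29, adjusted p = 0.183), without HFSC KO replicate 4 (0.53, adjusted p = 0.0792) and without chow KO replicates 1, 2 or 3 (0.39, 0.56 and 0.57, adjusted p = 0.146, 0.0798 and 0.0871), all in edgeR. Over all alternatives the log2 fold change stayed between 0.29 and 0.70 (adjusted p from 0.0223 to 0.183). The libraries of the 2 groups also differed in cell type markers, and in bulk tissue fewer cells of a type and less RNA per cell cannot be told apart. The summed level of 10 endothelial markers was 600.4 to 680 CPM in HFSC KO and 289 to 325 CPM in chow KO, and 8 of the 10 were higher and 0 lower. The summed level of 10 fibroblast and matrix markers was 2859 to 3357 CPM in HFSC KO and 448 to 705 CPM in chow KO, with 10 of 10 higher. Macrophage markers summed to 215 to 273 CPM in HFSC KO and 38.4 to 75.7 CPM in chow KO (8 of 10 higher), and adipocyte markers to 494 to 797 CPM in HFSC KO and 212 to 279 CPM in chow KO (5 of 8 higher). Of the red blood cell genes 5 of 6 passed as higher in HFSC KO, of the immediate early genes only 4 of 14, and of the slow fibre genes 10 of 11 passed as lower. Over all tested genes 14.9% passed as higher and 10.6% as lower in this comparison. The part of these lists in the Hspb1 difference was not tested.

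Hspb7, a small heat shock protein of heart and skeletal muscle that binds filamin C (chromosome 4, 141420779 to 141425311, plus strand), varied widely within the HFSC groups. It had 339, 687 and 427 CPM in HFSC KO replicates 2, 3 and 4, and 545, 221, 213 and 309 CPM in HFSC flox replicates 1 to 4. It had 593, 574 and 595 CPM in chow KO replicates 1, 2 and 3, and 459, 375 and 513 CPM in chow flox replicates 2, 3 and 4. The chow KO libraries were tight and lay above all chow flox libraries, yet the log2 fold change of 0.39 ± 0.33 did not pass (edgeR, adjusted p = 0.418). No other comparison passed for Hspb7, the smallest adjusted p in edgeR being that value.

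Cryab encodes alpha B-crystallin, the small heat shock protein of lens and striated muscle that binds desmin and titin (chromosome 9, 50751325 to 50756636, plus strand). It had 273, 516 and 312 CPM in HFSC KO replicates 2, 3 and 4, and 598, 367, 292 and 414 CPM in HFSC flox replicates 1 to 4. It averaged 504 ± 38.2 CPM in chow KO and 482 ± 69.5 CPM in chow flox (SD). The HFSC means were lower than the chow means in both genotypes, by -0.46 ± 0.27 in KO and -0.21 ± 0.25 in flox on the log2 scale, and neither passed (edgeR, adjusted p = 0.212 and 0.783). With limma voom the difference in KO passed, at -0.69. The slow fibre transcripts differed far more between the diets: 11 slow fibre genes summed to 1014 to 1523 CPM in HFSC KO and 905 to 2362 CPM in HFSC flox, against 8994 to 10535 CPM in chow KO and 7198 to 9209 CPM in chow flox. Over the 13 libraries Cryab and Hspb7 had a Pearson r of 0.68 and 0.63 with the mean log2 CPM of the slow fibre genes, against -0.46 for Hspb1, as a description of libraries whose diet groups differ in that list. The part of the slow fibre transcripts in the Cryab values was not tested.

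Bag3, the co-chaperone that links HSP70 and small heat shock proteins to selective autophagy of damaged sarcomere proteins (chromosome 7, 128523616 to 128546981, plus strand), was the steadiest member in HFSC flox and the most scattered in HFSC KO. It had 112, 193 and 80.5 CPM in HFSC KO replicates 2, 3 and 4, against 154, 146, 143 and 146 CPM in HFSC flox replicates 1 to 4. It had 123, 159 and 139 CPM in chow KO replicates 1, 2 and 3, and 128, 112 and 147 CPM in chow flox replicates 2, 3 and 4. No comparison passed, and the log2 fold changes of the 4 comparisons between groups ran from -0.20 to 0.19. The interaction was -0.32 ± 0.33 (edgeR, adjusted p = 0.529), and it passed with limma voom (-0.62, adjusted p = 0.0386; 0.0386 to 0.996 over the alternatives). Without HFSC KO replicate 3, HFSC against chow in KO was -0.54 (edgeR, adjusted p = 0.0485; 0.0485 to 0.948 over leaving out each library).

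HFSC KO replicate 3 stood out across members. It was the highest of the 13 libraries for Hspa8, Hspb1, Hspb7 and Bag3, at 0.35, 0.75, 0.70 and 0.52 above the mean of all libraries on the log2 scale. HFSC flox replicate 1 was the highest for Hspa1a, Hspa1b, Hsp90aa1 and Cryab, at 1.24, 1.67, 0.54 and 0.48. In each case the other libraries of the same genotype and diet were lower, and the labels give no batch to set beside these libraries.

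**Figure D2:**
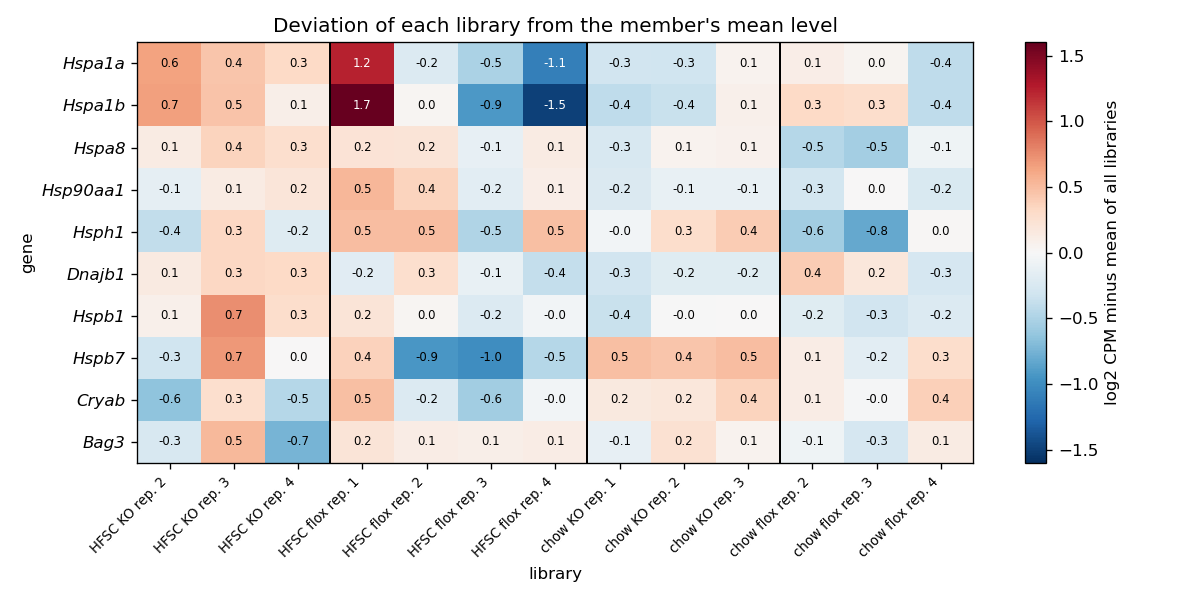
Log2 CPM of each member (rows) in each library (columns, grouped by genotype and diet and split by lines) minus its mean over the 13 libraries. HFSC flox replicate 1 is at 1.67 in Hspa1b and HFSC flox replicate 4 at -1.50, the highest and lowest values plotted.

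Across the set, calls were few in every comparison. For HFSC against chow in KO, 1 of the 10 members was higher and 0 lower, against 14.9% of all tested genes higher and 10.6% lower (25.5% in either direction), and the median log2 fold change of the members was 0.26 against 0.02 for all genes. The groups did not overlap for 5 of the 10 members there (Hspa1a, Hspa1b, Hspa8, Dnajb1 and Hspb1), against 50.6% of all genes, so the members' share was that of the background. For KO against flox on chow, edgeR called 0 of 10 members, against 11.5% of all genes (1.38% higher). It gave 1 member an unadjusted p below 0.05, against 33.8% of all genes. DESeq2 called 0 members and 3256 of all 16496 genes, and limma voom with sample weights called 3 members and 9899 genes. The members' median there was 0.09, against -0.01 for all genes. The groups did not overlap for 1 of 10 members (Hspb7), against 24.8% of all genes. Without chow flox replicate 4, edgeR called 3 members in this comparison, namely Hspa8 (0.46) and Hsph1 (0.92), higher in chow KO, and Dnajb1 (-0.53), lower. That fit called 7261 of the 16972 genes it tested.

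For KO against flox on HFSC, edgeR called 0 of 10 members, against 0.0182% of all genes. It gave 1 member (Hspb1, 0.39 ± 0.16) an unadjusted p below 0.05, against 10.4% of all genes. DESeq2 and limma voom called 0 members each, and 165 and 33 of all 16496 genes. The members' median log2 fold change was 0.11. The 95% intervals reached from -1.13 to 1.29 for Hspa1b but only from -0.19 to 0.48 for Hspa8. For HFSC against chow in flox, edgeR called 0 of 10 members, against 0.418% of all genes (0.303% lower). It gave 3 members an unadjusted p below 0.05, against 12.8% of all genes (Hspa8, Hsp90aa1 and Hsph1, all with higher means on HFSC). DESeq2 called 0 members and 392 of all 16496 genes, and limma voom called 4 members and 4176 genes. The members' median was 0.21, against -0.01 for all genes, and the groups overlapped for all 10 members, with 9.86% of all genes not overlapping. Without chow flox replicate 4, Hspa8 passed at 0.61 in edgeR, in a fit that called 1456 of 16972 genes. The interaction called 0 of 10 members in edgeR and 0 of all genes, with 2 members at an unadjusted p below 0.05 (29.2% of all genes). DESeq2 called 0 members and 2025 of all 16496 genes for it, and limma voom called 3 members and 7098 genes. The comparisons within a diet and within a genotype share libraries, so their values are given side by side and not correlated.

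**Figure D3:**
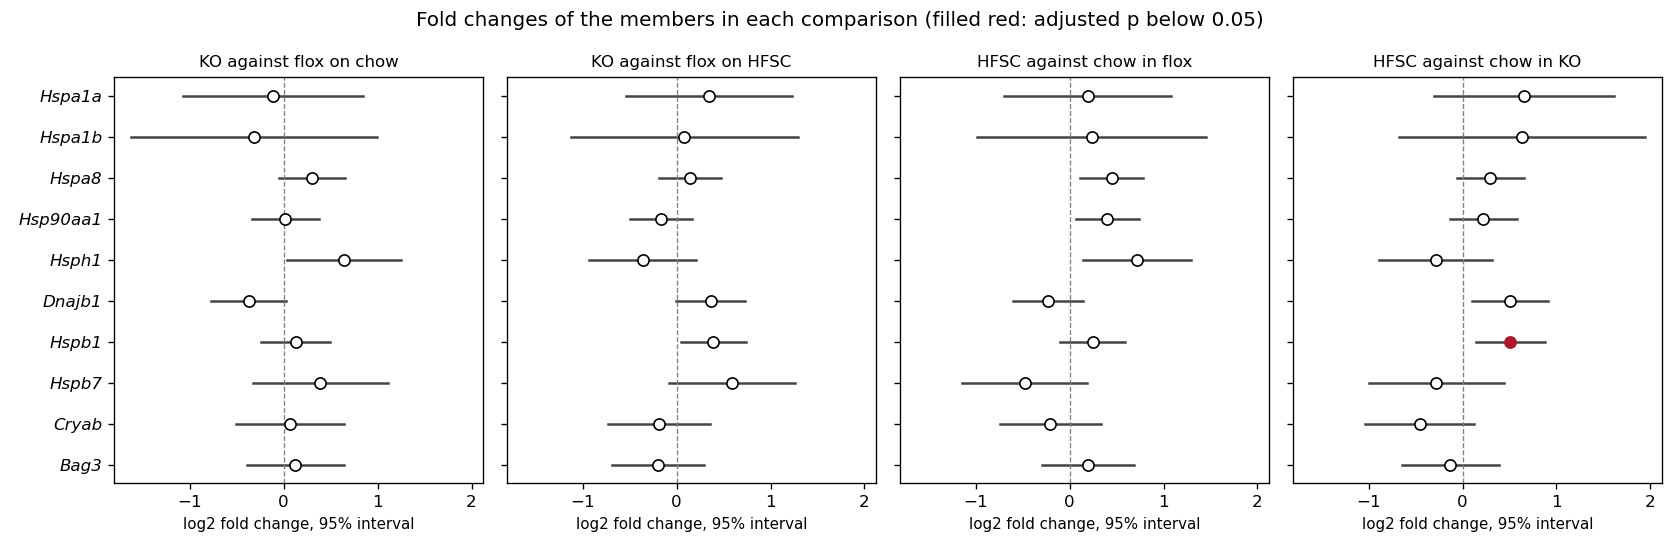
Log2 fold change (x axis) of each member in 4 comparisons, with lines for the 95% interval of the edgeR fit. The interval of Hspb1 for HFSC against chow in KO, 0.14 to 0.88, belongs to the single filled point, and those of Hspa1a and Hspa1b are the widest.

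The wider chaperone network was read from 75 further genes in 9 lists, of which 74 were tested (Hsf5 had too few reads). For HFSC against chow in KO 10 of the 74 were higher and 4 lower, against 14.9% and 10.6% of all genes, and for KO against flox on chow 1 was higher and 5 lower, against 1.38% and 10.1% of all genes. For KO against flox on HFSC edgeR called 0 of the 74, against 0.0182% of all genes. It gave 6 an unadjusted p below 0.05, against 10.4% of all genes. DESeq2 and limma voom called 1 each there, against 165 and 33 of all 16496 genes. For HFSC against chow in flox edgeR also called 0, against 0.418% of all genes. It gave 15 an unadjusted p below 0.05, against 12.8% of all genes. DESeq2 called 1 and limma voom 33 there, against 392 and 4176 of all 16496 genes. Most of the edgeR calls among the 74 were in the endoplasmic reticulum, whose chaperones fold secreted and membrane proteins.

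Of 15 endoplasmic reticulum chaperones, 7 were higher and 0 lower in HFSC KO than in chow KO, against 14.9% and 10.6% of all genes, with a median log2 fold change of 0.39 against 0.02 for all genes. Serpinh1, the collagen chaperone HSP47, had 119, 123 and 145 CPM in HFSC KO replicates 2, 3 and 4, against 36.2, 36.1 and 30.3 CPM in chow KO replicates 1, 2 and 3, and rose by 1.91 ± 0.33 on the log2 scale (edgeR, adjusted p = 0.00358). Hspa5, the HSP70 of the endoplasmic reticulum also called BiP, had 253, 250.4 and 256 CPM in HFSC KO, against 167, 173 and 178 CPM in chow KO, and rose by 0.55 ± 0.09. Pdia6, a protein disulfide isomerase, rose by 0.67 ± 0.11. These 3 calls held in all 14 alternatives. The fibroblast and matrix list (10 of 10 higher), the macrophage list (8 of 10) and the endothelial list (8 of 10) moved with this class, and their part in it was not tested. In flox the means of Hspa5 were 238 ± 8.46 CPM on HFSC and 183 ± 4.09 CPM on chow, with no overlap. None of the 15 passed there in edgeR. In DESeq2 1 passed and in limma voom 7, against 392 and 4176 of all 16496 genes.

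On chow the same class pointed down in KO. Of the 15, 5 fell and 0 rose in chow KO against chow flox, against 10.1% lower and 1.38% higher of all genes, with a median of -0.26 against -0.01 for all genes, namely Serpinh1 (-1.55 ± 0.33), Pdia4 (-0.93 ± 0.21), Pdia6 (-0.45 ± 0.11), Pdia3 (-0.91 ± 0.24) and Manf (-0.69 ± 0.18), the last pair being outside the naming rule. Pdia4 had 11.5, 9.39 and 10.5 CPM in chow KO, against 19.4, 27.7 and 12.4 CPM in chow flox replicates 2, 3 and 4, so chow flox replicate 4 lay just above chow KO. Fibroblast and macrophage transcripts moved with these genes. The fibroblast and matrix list summed to 448 to 705 CPM in chow KO and 1408 to 7357 CPM in chow flox, 10 of 10 lower in chow KO, and 10 macrophage markers summed to 38.4 to 75.7 CPM in chow KO and 105 to 1052 CPM in chow flox, also 10 of 10 lower. Their part in the endoplasmic reticulum values was not tested. These calls depended on the fit, as did those over all genes. They numbered 0 with only the chow libraries in the fit, which called 2 of 15268 genes. Leaving out replicate 3 of chow flox, or replicate 2 or 3 of chow KO, gave 0 calls among the 15 and 0 over all genes. Leaving out chow flox replicate 2 gave 1 among the 15 and 452 of 16857 genes. Leaving out chow KO replicate 1 gave 3 and 929 of 16958 genes, and leaving out chow flox replicate 4 gave 7 and 7261 of 16972 genes. The log2 fold change of Serpinh1 was -1.90 to -1.11 when each chow library was left out.

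Among the transcription factors of the response, Hsf1, the main activator, had 30.9, 35.2 and 23.5 CPM in HFSC KO replicates 2, 3 and 4, against 47.9, 43.2 and 46.2 CPM in chow KO replicates 1, 2 and 3. It fell by 0.61 ± 0.17 on the log2 scale (edgeR, adjusted p = 0.0231). Hsf4, best known from the lens, fell by 0.89 ± 0.20 in the same comparison (edgeR, adjusted p = 0.0105), whereas Hsf2 differed by 0.29 ± 0.17 and did not pass. Chow KO was the high group for Hsf1, since chow flox had 30.6, 26.6 and 41.1 CPM in replicates 2, 3 and 4, and HFSC flox had 28.8 to 37.2 CPM. In flox the diet difference of Hsf1 was -0.016 ± 0.16 (edgeR, adjusted p = 0.980), and the interaction of -0.60 ± 0.23 did not pass (edgeR, adjusted p = 0.126). The Hsf1 call was lost when any chow KO library or HFSC KO replicate 4 was left out (adjusted p in edgeR from 0.0502 to 0.0724), and the Hsf4 call held in all 14 alternatives.

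The other cytosolic classes gave 1 to 3 calls or none for HFSC against chow in KO. That comparison called 25.5% of all genes (14.9% higher and 10.6% lower). Fkbp5, an HSP90 co-chaperone of steroid receptors that glucocorticoids induce, had 149, 124 and 183 CPM in HFSC KO, against 26.9, 70.4 and 65.2 CPM in chow KO, and rose by 1.49 ± 0.43 (edgeR, adjusted p = 0.0262). Its level in HFSC flox was 23.3 to 56.9 CPM, below all HFSC KO libraries, but that difference did not pass (edgeR, adjusted p = 0.132). Of the 17 HSP70 and HSP90 cofactors, Unc45a (0.38 ± 0.12), a myosin and HSP90 chaperone, also rose, and Sugt1 fell by 0.33 ± 0.11. Of 7 further cytosolic HSP70, HSP90 and HSP110 genes Hspa1l, the testis-type HSP70 beside Hspa1a on chromosome 17, fell by 1.33 ± 0.40, with 4.62 to 6.14 CPM in HFSC KO and 12.8 to 14.95 CPM in chow KO. Chow flox replicate 4 had 12.8 CPM of Hspa1l, and the other chow flox libraries had 3.34 and 5.59 CPM. Of 8 subunits of the chaperonin TRiC Cct3 rose by 0.44 ± 0.12. The 9 J-domain co-chaperones, the 4 small heat shock proteins and the 4 autophagy partners of Bag3 gave 0 calls in edgeR in this comparison. Leaving out a single library ended several of these calls: any of the 6 for Hspa1l and for Sugt1, any but HFSC KO replicate 2 for Unc45a, any chow KO library or HFSC KO replicate 3 for Cct3, and chow KO replicate 1 or 3 or HFSC KO replicate 2 or 4 for Fkbp5.

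In mitochondria, Hspe1, the HSP10 lid of the chaperonin, was the 1 gene of 7 that passed for KO against flox on chow, against 11.5% of all genes (1.38% higher). It had 50.7, 54.9 and 57.8 CPM in chow KO replicates 1, 2 and 3, against 33.5, 34.1 and 45.5 CPM in chow flox replicates 2, 3 and 4, a log2 fold change of 0.53 ± 0.14 (edgeR, adjusted p = 0.0294). With library totals in place of TMM it was 0.21 and did not pass. The call was also lost when chow flox replicate 2 or 3 or chow KO replicate 2 or 3 was left out. It was lost too with only the chow libraries in the fit. The log2 fold change in these fits was 0.44 to 0.53. The fits without chow flox replicate 3 or chow KO replicate 2 or 3 called 0 of all genes. That without chow flox replicate 2 called 452 of 16857, and that with only the chow libraries 2 of 15268. Its divergent neighbour Hspd1, the HSP60 ring, did not pass (edgeR, adjusted p = 0.121). On chromosome 1 an Hspd1 promoter window (55087883 to 55088182) overlaps that of Hspe1. Both hold the element of 3 units, at -89 and -84 from the start of Hspe1. Another Hspd1 window (55088194 to 55088493) held 0 elements of either length.

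**Figure D4:**
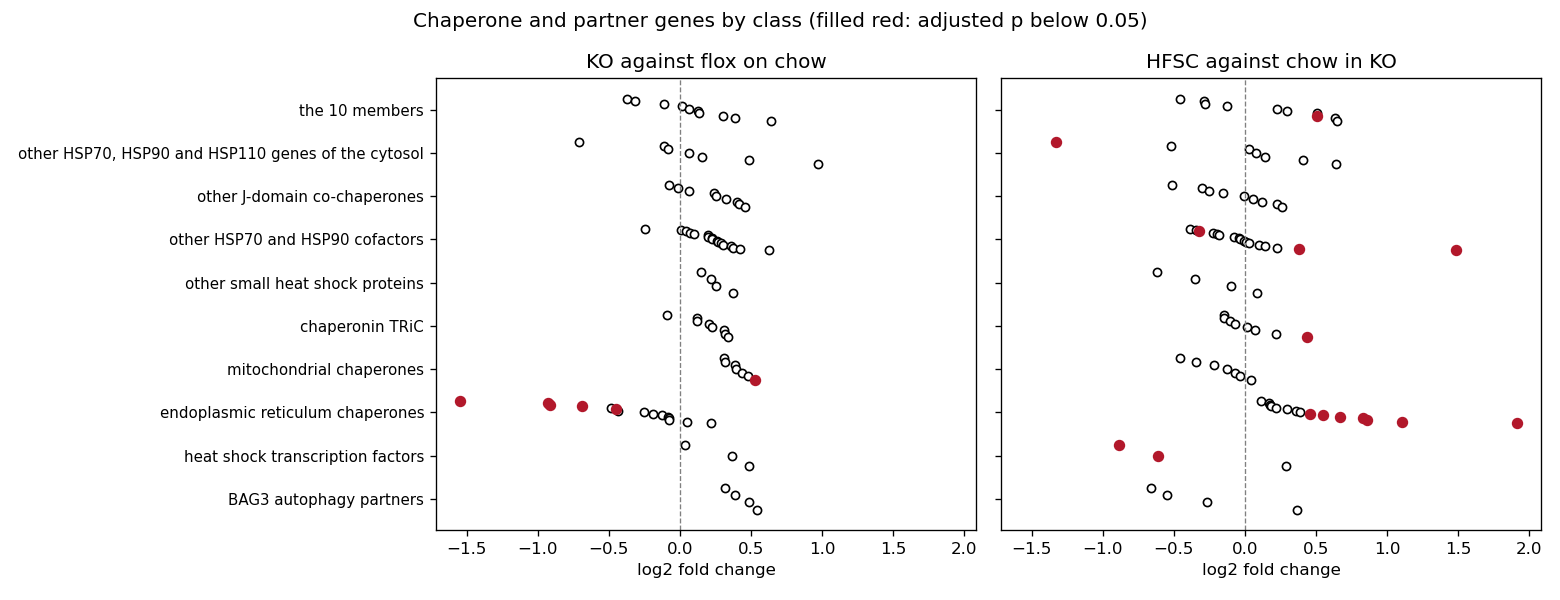
Log2 fold change of each tested gene (points) by chaperone class, for KO against flox on chow and for HFSC against chow in KO. Filled red points passed in edgeR. The endoplasmic reticulum class has 5 such points, all below 0, in the first panel and 7, all above 0, in the second, and the 10 members have 1 in all.

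To see which genes followed the members over the 13 libraries, the log2 CPM of 13142 genes averaging 1 CPM or more was compared with the mean standardised log2 CPM of the 6 HSP70, HSP90, HSP110 and J-domain members (Hspa1a, Hspa1b, Hspa8, Hsp90aa1, Hsph1 and Dnajb1). Among the closest were Nop58 (Pearson r = 0.89), a core protein of small nucleolar RNPs, Slc35f5 (0.85), Zdhhc13 (0.83) and Tnfrsf12a (0.81). For Hspb1, Hspb7, Cryab and Bag3 the closest were Ccdc136 (0.91), Flnc (0.88), which encodes filamin C of the Z-disc, Mustn1 (0.88), Ddb1 (0.88) and Mknk2 (0.85). These are among the highest values of 13142 and share libraries and depth with the members, so they carry no test. Hspa8 and Hspb1 (0.81), Hspb7 and Cryab (0.74) and Hspa8 and Hsph1 (0.72) were the closest pairs of members after Hspa1a and Hspa1b.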

How the data were processed

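Skeletal muscle RNA of 13 samples was analysed from 1 table of raw counts of reads per Ensembl gene, as deposited by the authors. Per the submitters' processing notes, the tools were STAR 2.5.2b, Trimmomatic 0.36 and Subread 1.5.2 (featureCounts), with build GRCm38, and the annotation release is not given in the sources used here. Genes were named and placed with GENCODE M21 on GRCm38. Groups came from the sample titles.

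The test was edgeR's (4.0.16, R 4.3.3) quasi-likelihood test with robust dispersions. A single model of 4 group means held all 13 libraries, with TMM scaling, edgeR's low-count filter (filterByExpr) and Benjamini-Hochberg adjustment over the 16496 genes kept. Each SE was obtained by dividing the log2 fold change by √F, and 95% intervals used the t distribution on the fit's degrees of freedom. The fit was tested on simulated data. CPM is given as mean ± SD. Total counts of 20830943 to 45710227 put a count of 3 reads at 0.0633 to 0.152 CPM, so every member was well counted, and this covers counting error only. All replicate pairs differed by more than sampling noise (chi-square per degree of freedom from 10.5 to 193 over genes with at least 20 reads).

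Alternatives were relative log expression (RLE) size factors, library totals, DESeq2 1.42.0, voom of limma 3.58.1 with quality weights per sample, omission of the low-count filter, the replicate number as a block, only the groups compared in the fit, the reads of Hspa1a and Hspa1b summed, and leaving out each library. Running them on the other chaperone genes was chosen after seeing the data. The members and lists were chosen with earlier results of these data known. Besides the members, the genes named are up to 3 per list, comparison and direction with the smallest p among those that passed, and the 5 genes closest to each member class by Pearson correlation, of which 1 is not reported here. Promoter sequences are RefSeq's on GRCm38.p6.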

Additional observations from a re-analysis of the deposited data

Results flagged for a closer look

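Hsph1 in HFSC flox replicate 3 had 46.4 CPM, far below the 90.4 to 91.3 CPM of the other 3 HFSC flox libraries. The gap to the nearest of them was 0.979 of the range of the group, above Dixon's 95% critical value of 0.829 for 4 samples. Of the 22 genes examined in HFSC flox, the group with 4 libraries, this was the 1 that stood apart, and chance gives about 1 in 20.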

How the results depend on the processing

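Of 780 member values under an alternative, 718 kept their sign and their side of the threshold, 24 passed only there, 8 no longer passed (all Hspb1 for HFSC against chow in KO) and 30 changed sign, none of them past the threshold either way. The cause was not tested. The count of members called for HFSC against chow in KO was 1, and 2 with library totals, DESeq2 or limma voom. It was 4 with only the groups compared in the fit, 0 with no low-count filter or the replicate block, and 0 to 1 leaving out each library. Over all 16496 genes that comparison called 4201, 3453 with library totals, 5273 with DESeq2, 7160 with limma voom and 2382 with the replicate block. It called 5651 of 15263 genes with only the groups compared and 3180 of 32648 with no low-count filter. Leaving out each library called 1459 to 2975 genes. With limma voom the count of members was 3 for KO against flox on chow, 4 for HFSC against chow in flox and 3 for the interaction. Over all 16496 genes limma voom called 9899, 4176 and 7098 there. Leaving out each library gave 0 to 3 members for KO against flox on chow, 0 to 1 for HFSC against chow in flox and 0 to 2 for the interaction. The highest count in each was without chow flox replicate 4, where 7261, 1456 and 5928 of 16972 genes were called.

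For the other chaperone and partner genes, KO against flox on chow called 6, but 10 with library totals, 16 with DESeq2, 54 with limma voom, 0 with the replicate block, 0 with only the groups compared and 0 to 43 leaving out each library. Over all genes it called 1898, but 3096 with library totals, 3256 with DESeq2 and 9899 with limma voom. The replicate block called 0 of all genes, only the groups compared 2, and leaving out each library 0 to 7261. Among the other chaperone and partner genes, HFSC against chow in KO called 14, but 22 with DESeq2 and 32 with limma voom. It called 9 with the replicate block, 25 with only the groups compared and 6 to 13 leaving out each library. The counts over all genes for that comparison are those given above for the members. KO against flox on HFSC called 0 of the chaperone and partner genes, and 1 with DESeq2 or limma voom, against 3, 165 and 33 of all genes. HFSC against chow in flox called 0 of them, but 1 with DESeq2, 33 with limma voom and 0 to 12 leaving out each library. Over all genes these fits called 69, 392, 4176 and 15 to 1456. The interaction called 0 of the chaperone and partner genes, but 5 with DESeq2, 35 with limma voom and 0 to 31 leaving out each library. Over all genes these fits called 0, 2025, 7098 and 0 to 5928.

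Sign changes with library totals for KO against flox on chow gave log2 fold changes of -0.018 for Hspa8, -0.35 for Hsp90aa1, -0.22 for Hspb1, -0.26 for Cryab and -0.20 for Bag3, against a median of all genes of -0.35. With library totals Bag3 was at 0.063 for HFSC against chow in KO, and the interaction was 0.16 for Hspa8, 0.18 for Hsp90aa1 and 0.067 for Cryab. With the replicate block Hsp90aa1 was at -0.040 and Cryab at -0.028 for KO against flox on chow, and Hspa1a at -0.29 and Hspa1b at -0.51 for HFSC against chow in flox. With limma voom, Hspa1a was at -0.28 and Hspa1b at -0.56 for HFSC against chow in flox, and the interaction of Hspb7 was -0.017. With only the groups compared Hsp90aa1 was at -0.017 for KO against flox on chow. Leaving out each library gave -0.062 to 0.098 for Hsp90aa1 and -0.040 to 0.19 for Cryab for KO against flox on chow; -0.24 to 1.10 for Hspa1b, -0.51 to 0.036 for Cryab and -0.61 to 0.034 for Bag3 for KO against flox on HFSC; -0.51 to 0.45 for Hspa1a and -0.78 to 0.55 for Hspa1b for HFSC against chow in flox; -0.54 to 0.087 for Bag3 for HFSC against chow in KO; and -0.14 to 0.58 for the interaction of Hspb7.

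The replicate numbers were not found to pair the libraries: deviations from group means correlated from -0.34 to 0.11 between 16 same-numbered pairs. In the fit with this block the 5 endoplasmic reticulum calls and the Hspe1 call on chow were lost, with 0 of all genes called there. The Hspb1 difference for HFSC against chow in KO was 0.52 with the block (edgeR, adjusted p = 0.105, and 0.0223 to 0.183 over the alternatives).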
